A study of Mus musculus with 15 samples.

Results

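Emx1, Emx2, Otx1, Dmrta2, Lhx2, Pax6, Nr2f1 and Nr2f2 are transcription factor genes that pattern the pallium, the dorsal wall of the embryonic forebrain from which the cerebral cortex arises. They were taken by symbol from the deposited gene tables, and all 8 were found among 32735 gene rows with a usable symbol. All 8 passed the filter on low counts, as did 16302 genes in all. RNA was sequenced from 5 populations of cells sorted from brains of hGFAP::GFP mice, which carry GFP under a human GFAP promoter. CTX held GFP+ astrocytes of the cortex. The other populations came from the ventricular-subventricular zone (V-SVZ), the stem cell niche of the lateral ventricles, and were GFP+ and CD24-. GPB+ cells were PDGFRβ+ CD133- EGFR-, GCPB+ cells were PDGFRβ+ CD133+ EGFR-, GCEPB+ cells were PDGFRβ+ CD133+ EGFR+, and GCEPB- cells were PDGFRβ- CD133+ EGFR+. CD133 enriches for stem cells that contact the ventricle, and surface EGFR is used to enrich for activated stem cells and amplifying progenitors. Each population had 3 libraries from male and female animals pooled, and the age of the animals was not given in the sources used here. Whether replicates are separate animals is not stated in the labels, and p-values therefore reflect the spread among these libraries, possibly technical.

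In the embryo these factors act in cortical progenitors in overlapping gradients. Emx2 and the nuclear receptors favour caudal cortical identity and Pax6 favours rostrolateral identity, while Lhx2 keeps the cortical field from adopting the fate of its borders. The adult V-SVZ carries a memory of embryonic territory: its dorsal wall descends from the pallium, and its lateral wall descends from the subpallium, whose progenitors use the Gsx and Dlx homeobox genes. Stem cells of the different walls make different types of olfactory bulb neurons.

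The libraries held 12466038 to 33665687 counts. A count of 3 corresponded to 0.102 to 0.246 CPM (counts scaled to the normalized library total), and floors cover counting error only. RNA of the sorting genes is given as mean CPM in CTX, GPB+, GCPB+, GCEPB+ and GCEPB-, in that order. Pdgfrb measured 183, 357, 342, 45.9 and 2.37, and Prom1 (CD133) 56, 28.4, 153, 66.8 and 48.8. Egfr measured 168, 171, 155, 537 and 797, and Cd24a 0.0419, 1.13, 0.97, 16.4 and 75. Summed markers describe the cell content of the populations and do not test the surface proteins used in sorting. A list of 12 astrocyte genes summed to 45700 to 53600 CPM in CTX and to 47700 to 55900 CPM in GPB+. The sum was 57000 to 63700 CPM in GCPB+, 10700 to 16800 CPM in GCEPB+ and 4280 to 4510 CPM in GCEPB-. A list of 12 cell cycle genes summed to 45.5 to 57.0 CPM in CTX, at most 128 in the EGFR- V-SVZ populations, 2490 to 3600 in GCEPB+ and 5390 to 6660 in GCEPB-. The RNA of each library comes from many cells, so fewer cells expressing a gene and less RNA per cell cannot be told apart.

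Levels per transcript length, in the authors' FPKM, placed Lhx2 first in all 5 populations, from 18.5 ± 4.12 FPKM in GCPB+ to 33.7 ± 6.44 in CTX (mean ± SD, n = 3 here and below). In CTX it was followed by Emx2 at 15.6 ± 2.62 FPKM, Otx1 at 14.5 ± 1.79, Pax6 at 12.7 ± 0.627, Nr2f1 at 6.59 ± 3.77 and Dmrta2 at 2.80 ± 0.292. Libraries of Emx2 and Otx1 overlapped in FPKM, as did those of Otx1 and Pax6, whereas Lhx2 lay above Emx2 and Dmrta2 lay below Nr2f1 without overlap. In GCEPB- the order of FPKM levels after Lhx2 (18.8 ± 1.79) was Pax6 at 13.7 ± 0.741, Nr2f1 at 10.1 ± 1.51, Otx1 at 7.40 ± 2.65 and Emx2 at 3.38 ± 0.655. There the libraries of Nr2f1 and Otx1 overlapped and the other neighbours in that order did not. Emx2 was thus the second of 8 in CTX and the fifth in GCPB+, GCEPB+ and GCEPB-. Emx1 and Nr2f2 had mean levels under 1 FPKM in every population, as Dmrta2 had in all V-SVZ populations.

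**Figure D1:**
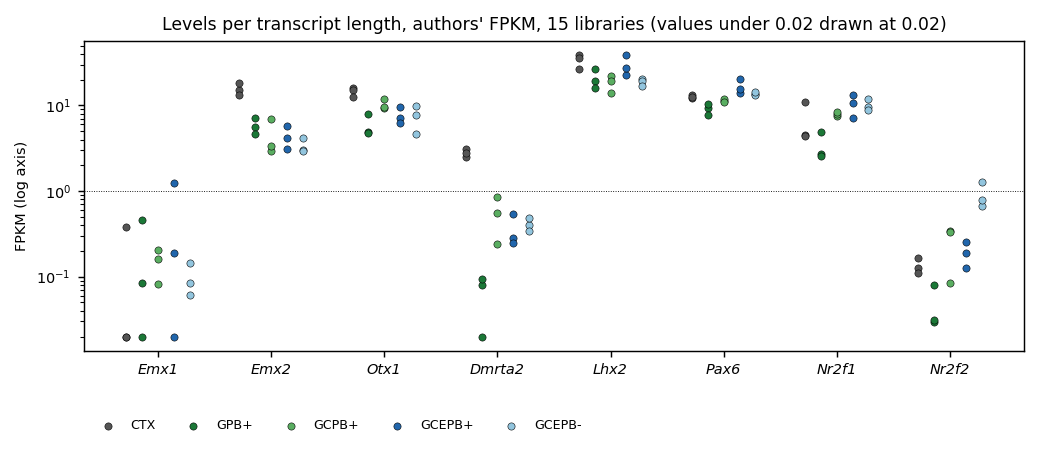
FPKM of each member in each of the 15 libraries, on a log axis, coloured by population, with a dotted line at 1 FPKM. Lhx2, Pax6, Otx1, Emx2 and Nr2f1 lie above 1 FPKM in all libraries, and Dmrta2 does so in the 3 CTX libraries alone.

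Cortical astrocytes were compared with the mean of the 4 V-SVZ populations by edgeR's quasi-likelihood test, with p-values adjusted over all tested genes. Emx2, Otx1, Dmrta2 and Lhx2 were lower in the V-SVZ and no member was higher, while Pax6, Nr2f1, Nr2f2 and Emx1 did not pass. In this comparison 35.5% of all genes passed an adjusted p of 0.05 and 19.1% were lower in the V-SVZ, so 4 of 8 lower is set against that share. The members were chosen with earlier results of these data known, so such shares, here and below, are descriptive and do not test enrichment. The median log2 fold change (V-SVZ over CTX) of the members was -0.50, beside 0.01 over all genes. The 4 calls held under 24 of 24 alternatives for each of these genes.

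Emx2, a homeodomain factor that also restrains the proliferation of adult neural stem cells in mouse, measured 55.1, 50.4 and 69.7 CPM in CTX. It measured 19.8, 16.6 and 26.9 CPM in GPB+, 23.9, 10.4 and 12.5 in GCPB+, 16.9, 12.2 and 9.68 in GCEPB+, and 8.09, 8.45 and 12 in GCEPB-. All 12 V-SVZ libraries lay below all CTX libraries. Emx2 was 4.11-fold lower in the V-SVZ (log2 fold change -2.04 ± 0.22 SE, adjusted p = 2.34e-06). In order of mean CPM, CTX was followed by GPB+, GCPB+, GCEPB+ and GCEPB-, and each neighbouring V-SVZ population overlapped the next. Emx2 lies on mm10 chromosome 19 from 59458690 to 59465357.

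Dmrta2, a zinc finger factor of the doublesex family that is needed for the cortical hem and the medial cortex, measured 10.2, 12.3 and 11.4 CPM in CTX. GPB+ libraries measured 0.301, 0 and 0.265 CPM, from 6, 0 and 6 counts. GCPB+ libraries measured 3.21, 0.902 and 2.03 CPM, GCEPB+ libraries 0.889, 0.728 and 1.5, and GCEPB- libraries 1.19, 1.06 and 1.57. The CTX libraries stood far above all others, and GPB+ lay below the remaining V-SVZ populations without overlap. The mean of the 4 fitted V-SVZ coefficients was 13.0-fold lower than CTX (log2 fold change -3.70 ± 0.41, edgeR adjusted p = 2.59e-06), the largest fold among the members. The size of this fold depends in part on the GPB+ coefficient, which rests on few counts. The plain means were 1.14 CPM in the V-SVZ and 11.3 in CTX. Dmrta2 lies on chromosome 4 from 109978025 to 109983684.

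Otx1, an orthodenticle homeodomain factor of cortical progenitors and deep-layer neurons, measured 68.6, 70.3 and 57.4 CPM in CTX and 45.4, 53.2 and 42.2 in GCPB+. It measured 37.0, 19.8 and 21.1 CPM in GPB+, 34.4, 25.0 and 22.8 in GCEPB+, and 35.5, 26.7 and 17.8 in GCEPB-. CTX stood above GCPB+ without overlap and GCPB+ above the other V-SVZ populations without overlap, while those other populations overlapped. The V-SVZ mean was 2.13-fold lower than CTX (log2 fold change -1.09 ± 0.21, adjusted p = 0.000498). Otx1 (chromosome 11, 21994764 to 22001651) is also known from cortical neurons. A list of 12 excitatory neuron markers summed to 18.3 to 20.3 CPM in CTX and 15.2 to 33.2 over the V-SVZ libraries.

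Lhx2, a LIM-homeodomain factor that selects cortical identity, measured 131, 90.4 and 118 CPM in CTX and 105, 61 and 74.7 in GCEPB+. The libraries of GPB+ held 85.3, 63.0 and 53.5 CPM, those of GCPB+ 70.8, 46.6 and 63.3, and those of GCEPB- 52.5, 50.3 and 47.5. All V-SVZ libraries but GCEPB+ replicate 1 lay below all CTX libraries, and every population overlapped its neighbour in the order of means. The V-SVZ mean was 1.78-fold lower (log2 fold change -0.83 ± 0.18, adjusted p = 0.00129). Lhx2 lies on chromosome 2 from 38339281 to 38369737.

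Pax6, a paired-domain factor of cortical progenitors that also specifies dopaminergic interneurons of the olfactory bulb, stayed between 43.9 and 90.3 CPM. It measured 62.7, 72.9 and 67.7 CPM in CTX, 47.7, 55.0 and 43.9 in GPB+, 59.7, 64.8 and 59.5 in GCPB+, 90.3, 62.5 and 67.5 in GCEPB+, and 59.4, 54.8 and 68.0 in GCEPB-. The V-SVZ and CTX libraries overlapped, although 8 of 12 V-SVZ libraries, all 3 of GPB+ among them, lay below all CTX libraries and 1 lay above. The log2 fold change was -0.16 ± 0.14 (edgeR adjusted p = 0.407). Pax6 lies on chromosome 2 from 105668896 to 105698410.

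The nuclear receptor Nr2f1 (COUP-TFI; chromosome 13, 78188973 to 78198982) measured 14.3, 35.2 and 14 CPM in CTX, where replicate 2 stood above the others. It measured 15.1, 8.64 and 8.26 CPM in GPB+, 26.0, 28.5 and 28.6 in GCPB+, 38.4, 18.2 and 31.4 in GCEPB+, and 32.2, 25.0 and 25.5 in GCEPB-. CTX overlapped every V-SVZ population, and the log2 fold change was 0.07 ± 0.29 (adjusted p = 0.889). Without CTX replicate 2 this value was 0.64, still without a call.

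Nr2f2 (COUP-TFII; chromosome 7, 70351950 to 70366746), a nuclear receptor of the caudal ganglionic eminence and of venous endothelium, was low outside GCEPB-. It measured 0.501, 0.844 and 0.377 CPM in CTX, 0.351, 0.144 and 0.177 in GPB+, 1.99, 1.80 and 0.475 in GCPB+, and 0.808, 0.437 and 0.828 in GCEPB+. GCEPB- libraries measured 2.92, 3.76 and 6.40 CPM, from 66, 57 and 159 counts, and lay above all others. Against CTX the V-SVZ mean gave a log2 fold change of 0.81 ± 0.59 (adjusted p = 0.320).

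Emx1, the homeodomain factor whose Cre lines mark the pallial lineage, was hardly read. The counts per library were 0, 0 and 14 for CTX, 0, 12 and 3 for GPB+, 5, 1 and 9 for GCPB+, 0, 33 and 6 for GCEPB+, and 2, 2 and 5 for GCEPB-. The highest library, GCEPB+ replicate 2, held 1.60 CPM, and no population was above another without overlap. Emx1 (chromosome 6, 85187931 to 85204463) passed the filter through single scattered libraries, and its comparisons have SEs of 1.29 to 1.61 on the log2 scale, and with this spread between libraries no difference was detectable.

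**Figure D2:**
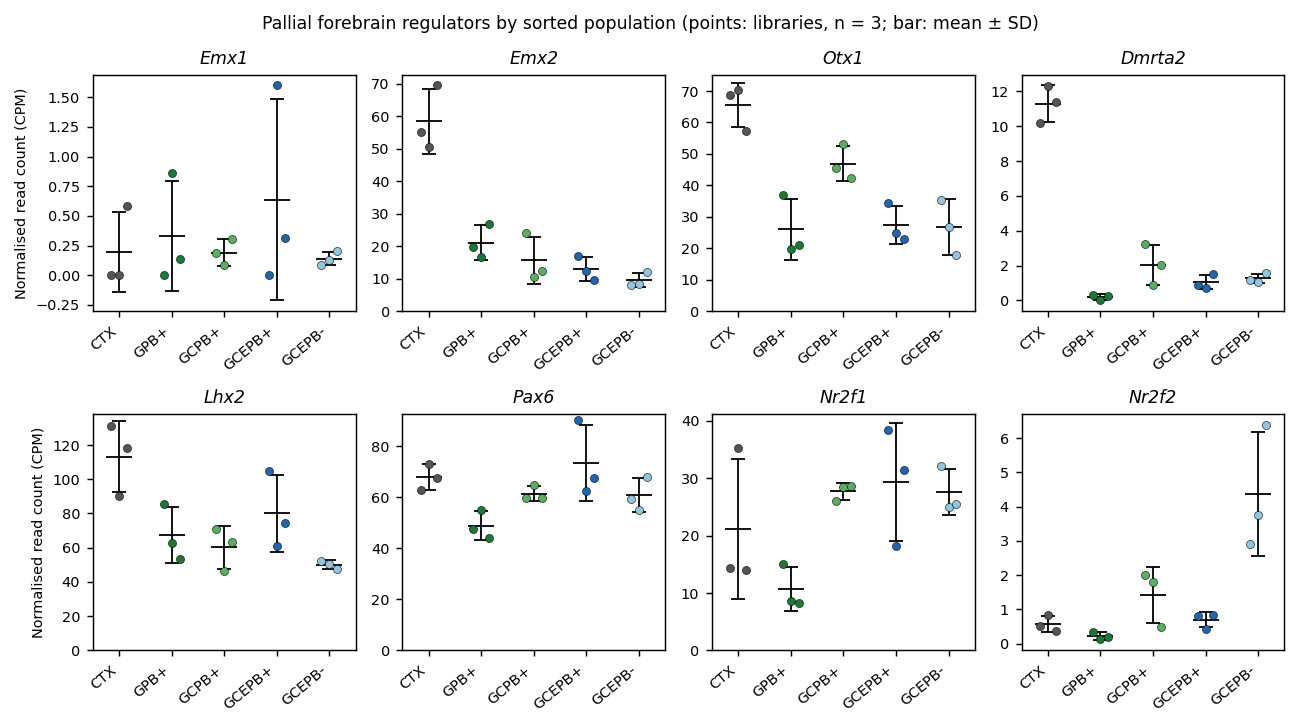
Normalised read count (CPM) of each member in each library, by population, with the mean and SD of 3 libraries as a bar. Emx2, Otx1 and Dmrta2 are highest in all 3 CTX libraries, Nr2f2 is highest in the 3 GCEPB- libraries (2.92 to 6.40 CPM), and Pax6 and Nr2f1 overlap between CTX and the V-SVZ. Of the 12 V-SVZ libraries, 8 lie below all CTX libraries for Pax6 and 2 for Nr2f1.

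To show the sequence context of the 2 members with the largest fold against CTX, and of the member highest in GCEPB-, the 250 bases before the RefSeq start of Emx2, Dmrta2 and Nr2f2 are given (GRCm38.p6, 5′ to 3′ on the gene's strand, CpG dinucleotides in capitals). They lie at chr19:59458440-59458689 (plus strand), chr4:109977775-109978024 (plus strand) and chr7:70366747-70366996 (minus strand).
Emx2: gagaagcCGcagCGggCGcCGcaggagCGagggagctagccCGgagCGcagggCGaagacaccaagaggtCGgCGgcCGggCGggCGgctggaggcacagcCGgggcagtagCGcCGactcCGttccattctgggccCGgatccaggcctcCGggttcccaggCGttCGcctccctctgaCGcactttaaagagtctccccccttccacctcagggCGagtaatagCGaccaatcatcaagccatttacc
Dmrta2: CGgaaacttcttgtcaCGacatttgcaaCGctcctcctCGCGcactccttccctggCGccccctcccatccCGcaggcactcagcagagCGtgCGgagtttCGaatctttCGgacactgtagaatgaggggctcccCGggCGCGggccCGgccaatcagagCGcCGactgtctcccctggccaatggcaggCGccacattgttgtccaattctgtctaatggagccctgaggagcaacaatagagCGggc
Nr2f2: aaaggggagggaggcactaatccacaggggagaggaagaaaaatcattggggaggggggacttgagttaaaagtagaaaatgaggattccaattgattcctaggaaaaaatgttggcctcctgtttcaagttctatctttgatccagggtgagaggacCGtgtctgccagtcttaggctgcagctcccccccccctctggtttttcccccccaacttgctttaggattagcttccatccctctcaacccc
Emx2 and Dmrta2 start beside CpG-rich sequence, with 24 and 19 CpGs, whereas the Nr2f2 window held 1, and the median of 32851 promoter windows was 6. The windows of members not printed held 30 CpGs for Emx1, 25 and 24 for Lhx2, 15 and 15 for Pax6, and 22 and 2 for Nr2f1. The CpG count thus did not follow the difference from CTX. RefSeq windows were found for 7 members (10 windows), with none for Otx1. Both strands were searched for TAATTA, a homeodomain core found in 4.84% of all windows, TAATCC, a bicoid-type core as bound by Otx factors (6.25%), AGGTCA, a nuclear receptor half-site (14%), CTTTGA, a TCF/LEF core (13.8%), and GACCACCCA, a GLI core (0.225%). Among the 10 windows of members, matches were found in the Nr2f2 window alone, which held TAATCC at -233 and, on the reverse strand, at -27, and CTTTGA at -114, none overlapping another. A match is a description of letters and not a binding site.

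The EGFR- populations were then set against CTX separately, which asks whether the difference is present among cells with astrocyte marker levels near those of CTX. The comparisons share their CTX libraries. In GPB+, Emx2, Otx1 and Dmrta2 were lower (3 of 8, beside 6.74% of all genes passing and 2.7% lower). In GCPB+, Emx2, Dmrta2 and Lhx2 were lower (3 of 8, beside 6.72% passing and 2.55% lower). Of the 12 astrocyte markers, 1 was higher and 1 lower in GPB+ than in CTX, and the same counts were found in GCPB+. Other marker lists moved more. Cell cycle genes were higher in 6 of 12 cases in GPB+ and 8 of 12 in GCPB+, with sums of 75.5 to 95.5 and 101 to 128 CPM against 45.5 to 57.0 in CTX. Of 11 tested ependymal markers 3 were higher in each population, and of 12 neuroblast markers 4 were higher and 1 lower in GPB+ and 3 higher and 1 lower in GCPB+. Mature oligodendrocyte markers were higher in 3 of 12 cases in GCPB+, with a sum of 1480 to 2070 CPM against 261 to 808 in CTX, and in 0 of 12 in GPB+ (640 to 1060 CPM). The part of these lists in the members' values was not tested.

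Emx2 differed from CTX by a log2 fold change of -1.47 ± 0.32 in GPB+ (edgeR adjusted p = 0.0109) and of -1.90 ± 0.33 in GCPB+ (adjusted p = 0.00194). The GPB+ call ended without CTX replicate 3 (adjusted p = 0.0577) or GPB+ replicate 2 (0.056). Dmrta2 differed by -5.77 ± 0.75 in GPB+ (adjusted p = 0.000157) and by -2.44 ± 0.62 in GCPB+ (adjusted p = 0.0246). The second of these calls ended without CTX replicate 1, 2 or 3 (adjusted p = 0.0623, 0.083 and 0.0822) and without GCPB+ replicate 2 (0.113) or 3 (0.0892). In both populations the Dmrta2 libraries lay below all CTX libraries.

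Otx1 was 2.52-fold lower in GPB+ than in CTX (log2 fold change -1.33 ± 0.28, edgeR adjusted p = 0.00854). In GCPB+ the Otx1 value was -0.48 ± 0.28 (adjusted p = 0.365), although its libraries did not overlap those of CTX. Lhx2 was lower in GCPB+ by -0.91 ± 0.24 (adjusted p = 0.0286) and measured -0.75 ± 0.24 in GPB+ (adjusted p = 0.0691, and 0.0285 with DESeq2). The Lhx2 call in GCPB+ ended without CTX replicate 1 (adjusted p = 0.117) or 3 (0.0923) and without GCPB+ replicate 2 (0.149) or 3 (0.0765). Values of Pax6 were -0.47 ± 0.18 in GPB+ and -0.14 ± 0.18 in GCPB+, and those of Nr2f1 were -0.98 ± 0.37 and 0.39 ± 0.36, none passing.

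**Figure D3:**
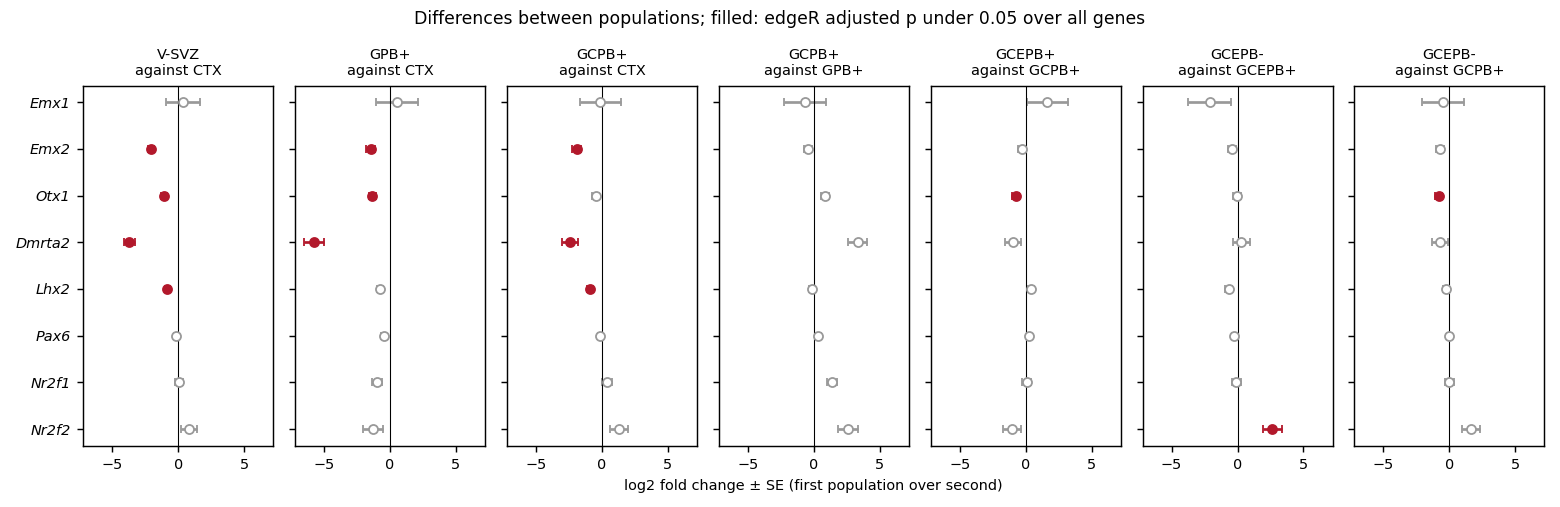
Log2 fold change ± SE of each member in 7 comparisons, first population over second, with filled red points where the edgeR adjusted p over all genes was under 0.05. Filled points for Emx2, Otx1, Dmrta2 and Lhx2 lie left of 0, and Nr2f2 is filled right of 0 in GCEPB- against GCEPB+.

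The series was then followed from GPB+ to GCPB+, which differ in CD133, to GCEPB+, which adds EGFR, and to GCEPB-, which lacks PDGFRβ. Between GCPB+ and GPB+ no member passed (0 of 8), and 5 genes (0.0307%) passed in all. At an unadjusted p under 0.05, edgeR gave 4 of 8 members and 7.12% of all genes. All 4 were higher in GCPB+. Their log2 fold changes were 0.85 ± 0.28 for Otx1, 3.33 ± 0.70 for Dmrta2, 1.37 ± 0.37 for Nr2f1 and 2.61 ± 0.74 for Nr2f2. The GCPB+ libraries of each lay above all GPB+ libraries, as did those of Pax6 (edgeR unadjusted p = 0.0861). This separation is read from the same libraries as the p-values and adds no support to them. The share of all genes separated in this way was not counted. Unadjusted edgeR p-values under 0.05 were fewer among members on the next step, GCEPB+ against GCPB+, at 1 of 8 beside 44.6% of all genes. The counts were 2 of 8 beside 23.4% for GCEPB- against GCEPB+, and 3 of 8 beside 54.6% for GCEPB- against GCPB+. The adjusted p of Dmrta2 was 0.276 with edgeR and 0.00126 to 0.865 over its alternatives, the lowest with DESeq2, which called 1 member. Limma on log2(FPKM + 1) called 0. With the replicate number as a block, 0 members and 2 genes passed. The remaining values were -0.43 ± 0.32 for Emx2, -0.16 ± 0.24 for Lhx2, 0.33 ± 0.18 for Pax6 and -0.67 ± 1.58 for Emx1.

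Between GCEPB+ and GCPB+, where 36.1% of all genes passed and 18% were lower, Otx1 was the 1 member of 8 that did. It fell from 46.9 ± 5.68 to 27.4 ± 6.18 CPM, 1.71-fold lower (log2 fold change -0.77 ± 0.28, adjusted p = 0.0398), with no overlap between the libraries. The call ended without any of GCPB+ replicates 1, 2 and 3 (edgeR adjusted p = 0.0684, 0.124 and 0.0535) and without GCEPB+ replicate 2 (0.106) or 3 (0.135). It held in 8 of 16 alternatives, with the replicate number as a block among them. In FPKM the Otx1 value was -0.40 with a pseudocount of 1 (limma adjusted p = 0.197), and Lhx2 (0.63, adjusted p = 0.0364) and Pax6 (0.49, adjusted p = 0.023) were higher in GCEPB+. The median of all genes stood at 0.27 in that FPKM fit and at 0.11 in the count fit. In counts, Lhx2 measured 0.41 ± 0.24 and Pax6 0.26 ± 0.18, without passing. Over the same step 11 of 12 astrocyte markers were lower and 12 of 12 cell cycle genes higher, and their part in the Otx1 value was not tested.

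Between GCEPB- and GCEPB+, where 11.1% of all genes passed and 1.85% were higher in GCEPB-, Nr2f2 was the 1 member of 8 that passed. The count of genes higher in GCEPB-, 301, came to 406, 134 and 171 on leaving out GCEPB+ replicate 1, 2 or 3. It came to 120, 185 and 178 on leaving out GCEPB- replicate 1, 2 or 3. Nr2f2 rose from 0.691 ± 0.220 to 4.36 ± 1.82 CPM (log2 fold change 2.65 ± 0.70, adjusted p = 0.020). Leaving out GCEPB+ replicate 2 or 3 or GCEPB- replicate 3 ended this call (adjusted p = 0.0908, 0.0537 and 0.106), and Nr2f2 did not reach the FPKM filter. A list of 12 endothelial markers summed to 2.77 to 11.8 CPM in GCEPB- and 2.46 to 50.1 in GCEPB+, and 0 of 11 tested differed. Emcn was the only marker of that list unread in GCEPB-, and it was near the floor everywhere, with at most 10 counts in any population. Pericyte and smooth muscle markers summed to 5.48 to 17.3 CPM in GCEPB- and 15.9 to 20.4 in GCEPB+, and 1 of 7 tested was lower in GCEPB-. Of these 12 markers 3 were unread in GCEPB- and 5 in GCEPB+. A list of 12 neuroblast markers summed to 881 to 1170 CPM in GCEPB- and 347 to 531 in GCEPB+, with none unread and 1 of 12 higher. Larger movements on this step were those of astrocyte markers (11 of 12 lower in GCEPB-), mature oligodendrocyte markers (8 of 12 lower, summing to 132 to 186 against 314 to 1230 CPM), microglia markers (3 of 10 lower) and cell cycle genes (4 of 12 higher). The part of these lists in the Nr2f2 value was not tested. Lhx2 measured -0.68 ± 0.24 on this step (adjusted p = 0.079), and it passed without GCEPB+ replicate 2 (adjusted p = 0.049).

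Across the whole span from GCPB+ to GCEPB-, where 48.8% of all genes passed and 24.9% were lower, Otx1 alone of the 8 members passed. It was 1.76-fold lower in GCEPB- (log2 fold change -0.81 ± 0.28, adjusted p = 0.024), and this call ended without GCPB+ replicate 2 (0.0821) or GCEPB- replicate 2 (0.0566) or 3 (0.118). Emx2 measured -0.72 ± 0.32 (adjusted p = 0.078, and 0.0488 with DESeq2) and Nr2f2 1.62 ± 0.67 (adjusted p = 0.0567, and 0.0451 with DESeq2). Pax6 at -0.01 ± 0.18 and Nr2f1 at -0.01 ± 0.36 had values near 0.

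Noncoding genes lie beside several members in RefSeq (GRCm38.p6). Emx2os starts 54 bases from Emx2 on the opposite strand without overlapping it, so the Emx2 window printed above also covers its start. Pax6os1 overlaps Pax6 by 1435 bases, A830082K12Rik overlaps Nr2f1 by 857 bases and B130024G19Rik overlaps Nr2f2 by 1364 bases. Elp4, with population means of 63.6 to 79.7 CPM, overlaps Pax6 by 1091 bases. The library kit does not mark strand, so reads in those stretches cannot be assigned. Emx2os measured 28.4, 30.3 and 31.8 CPM in CTX. The GPB+ libraries held 15.3, 18.6 and 22 CPM and the GCPB+ libraries 13.7, 13.7 and 17.4 CPM. It measured 1.33, 3.93 and 9.05 CPM in GCEPB+ and 4.91, 1.12 and 1.21 in GCEPB-, so the EGFR+ libraries lay below all others. Against CTX the V-SVZ mean of Emx2os gave a log2 fold change of -2.0 ± 0.38 (edgeR adjusted p = 0.000584), beside -2.04 ± 0.22 for Emx2. From GCPB+ to GCEPB+ Emx2os fell (log2 fold change -1.65 ± 0.56, adjusted p = 0.0294), where Emx2 measured -0.28 ± 0.32 (adjusted p = 0.544); the difference between these changes was not tested.

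A830082K12Rik measured 16.1, 20.6 and 18.7 CPM in CTX and 5.76 to 13.8 over the V-SVZ libraries, and was lower in the V-SVZ (log2 fold change -0.97 ± 0.21, edgeR adjusted p = 0.00151), where Nr2f1 did not pass. Pax6os1 measured 1.93, 1.92 and 3.10 CPM in CTX and was unread in GPB+. It was lower in the V-SVZ, at a mean of 0.366 against 2.32 CPM (adjusted p = 0.000149), where Pax6 did not pass. No fitted fold is given, because it depends on the prior count where a population is unread. From GCEPB+ to GCEPB- it fell from 0.492 to 0.0134 CPM (adjusted p = 0.0354), the latter from a single read. The list of noncoding neighbours, which did not include B130024G19Rik, had 9 names, of which 4 were in the table and 3 were tested.

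**Figure D4:**
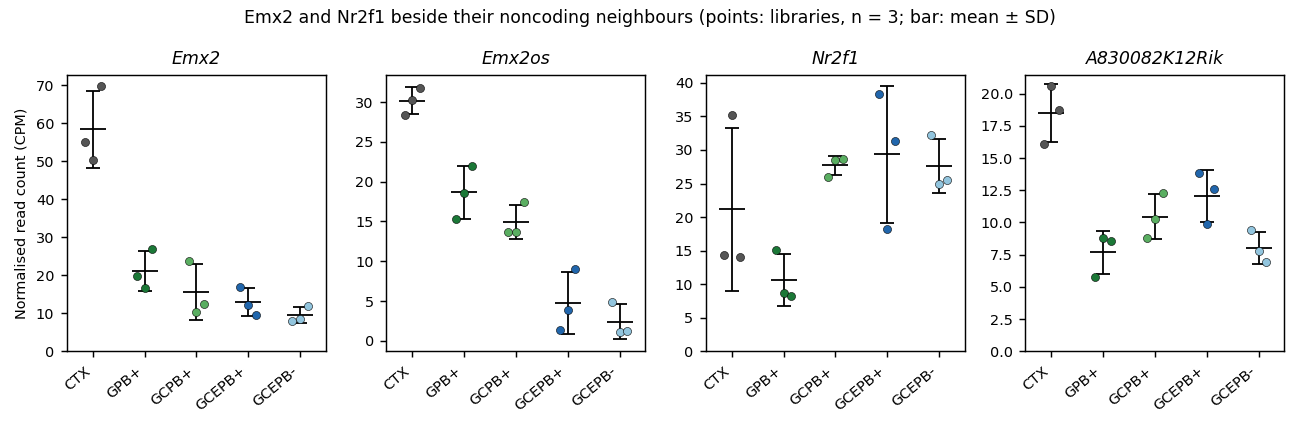
Normalised read count (CPM) of Emx2 and Nr2f1 and of their noncoding neighbours Emx2os and A830082K12Rik in each library, with the mean and SD of 3 libraries. Emx2os falls below 10 CPM in all GCEPB+ and GCEPB- libraries, and A830082K12Rik is highest in the 3 CTX libraries.

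Other regulators of the same field gave the members their context. Of 20 further pallial and forebrain regulators 14 were tested, with a median log2 fold change of -0.05. Against CTX 1 was higher and 2 lower in the V-SVZ, beside 35.5% of all genes passing and 19.1% lower. Lef1, the Wnt effector needed for the hippocampus, was lower at 2.42 against 16 CPM (-2.84 ± 0.30, edgeR adjusted p = 1.75e-06). Fezf2, which specifies subcerebral projection neurons, gave -1.63 ± 0.23 for the V-SVZ mean. Its levels of 41.4 CPM in GPB+ and 44.7 in GCPB+ were near the 42.8 of CTX, and those of 8.27 in GCEPB+ and 2.36 in GCEPB- were low. Sall3 was higher in the V-SVZ by 1.05 ± 0.15.

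Of 20 subpallial and septal regulators, a list that includes Zic genes, 15 were tested. Of these, 6 were higher and 5 lower in the V-SVZ, beside 35.5% of all genes passing and 19.1% lower. Their median log2 fold change was 1.54, or 1.18 with genes unread in CTX set at their bound. Dlx2 was unread in CTX and averaged 16.6 CPM in the V-SVZ, at least 87.2-fold higher against 3 counts per library (edgeR adjusted p = 3.8e-05). Gsx2 averaged 10.7 against 0.0477 CPM (adjusted p = 1.45e-06) and Dlx1 28.1 against 0.0907 CPM (adjusted p = 1.53e-06). Zic4 was lower, at 0.185 against 5.15 CPM. Of 16 cofactors of these factor families 14 were tested, and 6 were higher and 5 lower, with a median of 0.08. Tle2, a Groucho-type corepressor, was lower (17.6 against 148 CPM, -4.54 ± 0.36). Bcl11a, a zinc finger partner of COUP-TF receptors, was higher (28.5 against 0.629 CPM, 3.99 ± 0.34), as were Ldb2, a LIM-domain binding adaptor (4.07 ± 0.93), and Bcl11b (1.20 against 0.0238 CPM).

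On the step from GCPB+ to GCEPB+, 5 of the 14 pallial regulators were higher and 2 lower (median 1.01, beside 0.11 over all genes). Of all genes, 36.1% passed on this step and 18% were lower. Fezf2 fell from 44.7 to 8.27 CPM (-2.44 ± 0.33, edgeR adjusted p = 2.45e-05). Tfap2c rose to 1.98 CPM and Eomes, a marker of cortical intermediate progenitors, to 0.364 CPM. Both started near the floor, with 5 and 2 counts in all of GCPB+. The Eomes libraries of GCEPB+ held 12, 4 and 8 counts (edgeR adjusted p = 0.0482). Neurog2 was unread in GCPB+ and measured 0.404, 0 and 2.48 CPM in GCEPB+, with most of its reads in replicate 3. Of the 15 subpallial and septal regulators 6 were higher and none lower (median 1.91), with Dlx1 at 4.12 ± 0.50 and Gsx2 at 3.02 ± 0.53. Gsx1 measured 1.49, 0 and 0.0517 CPM in the GCEPB+ libraries against a mean of 0.0113 CPM in GCPB+, with nearly all its reads in replicate 1. Of the 14 cofactors 3 were higher and 4 lower (median -0.10), with Bcl11a at 3.74 ± 0.33, Tle2 at -3.72 ± 0.59, Lmo3 at -1.60 ± 0.42 and Zfpm2 at -1.31 ± 0.32.

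On the step from GCEPB+ to GCEPB-, 2 pallial regulators fell, Fezf2 (-1.82 ± 0.34) and Gli3, the hedgehog pathway repressor that patterns the dorsal telencephalon (-0.99 ± 0.26, edgeR adjusted p = 0.0187). Of the subpallial and septal regulators 1 rose, Dlx1 (1.87 ± 0.44, adjusted p = 0.00864), and of the cofactors 2 rose, Lmo1 (2.19 ± 0.52) and Bcl11a (0.96 ± 0.29). The median log2 fold changes of these lists were -0.20, 1.25 and 0.00, beside -0.03 over all genes. Of all genes, 11.1% passed on this step and 1.85% were higher in GCEPB-. Between GCPB+ and GPB+ no gene of the 3 lists passed, with medians of 0.06, -0.15 and 0.13.

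**Figure D5:**
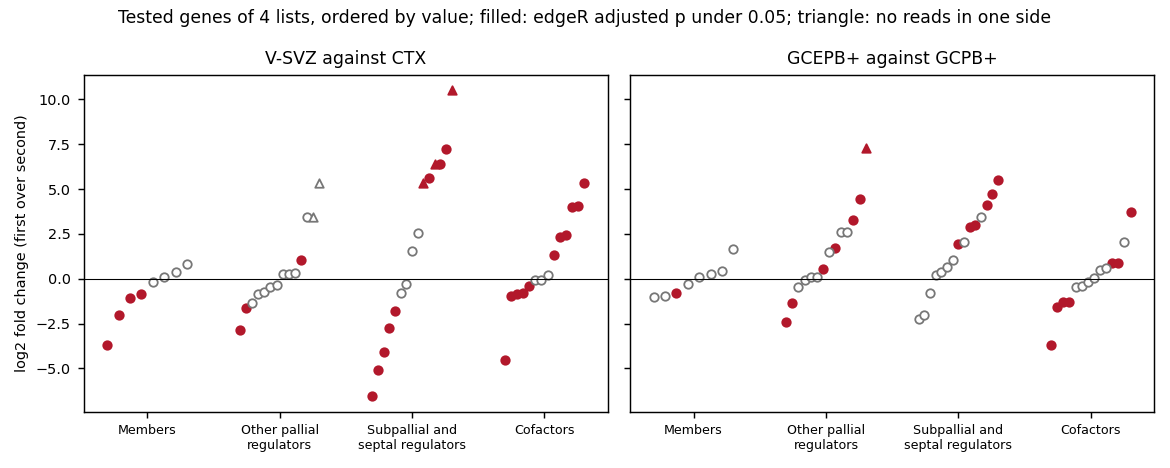
Log2 fold change of the tested genes of 4 lists, ordered by value, for V-SVZ against CTX and for GCEPB+ against GCPB+. Filled points passed an edgeR adjusted p of 0.05 and triangles mark genes unread on 1 side, whose fitted values depend on the prior count. Genes unread in 1 of the V-SVZ populations, such as Zic4, share that limit in the left panel. The members span -3.70 to 0.81 in V-SVZ against CTX.

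The genes whose log2 CPM followed each member most closely over the 15 libraries were ranked by Pearson's r among genes with a mean of at least 5 CPM, as a description, since libraries share a population and a depth. Plekhh3 (r = 0.94), Hmgn3 (0.92) and Etv4 (0.92) were closest to Emx2. Hmgn3 also led for Lhx2 (0.87), followed by Grik5 (0.86) and the Notch target Hes1 (0.85). The closest to Dmrta2 were Grin3a (0.93), Ldha (0.91) and Fam188a (0.90), and those to Otx1 included Ostf1 (0.89) and Pgk1 (0.88). Pax6 was followed most closely by Trappc2l (0.93), Nit2 (0.87) and Chp1 (0.84), Nr2f1 by Pet100 (0.87), Cdk10 (0.82) and D17Wsu92e (0.79), and Nr2f2 by Arpin (0.86), Erich1 (0.85) and Slc35e1 (0.84). Emx1 was too close to the floor for such a ranking to be read. Dmrta2 (6, 0 and 6 counts in GPB+) and Nr2f2 (7, 2 and 4) were also near the floor in some libraries, which limits their rankings. Each named gene was picked for its r from 11260 or 11261 genes.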

How the data were processed

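RNA of sorted cells was amplified with an oligo(dT) ultra-low-input kit, tagmented and sequenced as paired reads of 100 bases, per the labels' protocols. Per the submitters' processing notes the tools were TopHat2 2.1, HTSeq, Cufflinks and cutadapt and the build mm10. Annotation and strand setting are not given in the sources used here. Whole-number gene counts were deposited, with FPKM values scaled by the authors to transcript length and library size. The FPKM table's symbol and position headers were exchanged and were read by content. Of 32763 count rows, 28 named no usable gene (0.184% to 0.323% of counts) and were left out.

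Counts of 15 libraries were fitted together by edgeR 4.0.16 (R 4.3.3) with 5 groups, filterByExpr, the quasi-likelihood test and TMM factors of 0.825 to 1.22, with Benjamini-Hochberg adjustment over 16302 genes and a threshold of 0.05. The V-SVZ against CTX contrast takes the mean of the 4 V-SVZ coefficients. The SE was derived as the size of the log2 fold change divided by the root of F, and is unreliable near the floor. The code was tested on simulated data. Alternatives used other factors, filters, DESeq2 1.42.0, limma 3.58.1 on log2 FPKM with pseudocounts of 1 or 0.1, a replicate block, and left-out libraries. No replicates agreed within sampling noise (chi-square per gene 26.7 to 104). Same-numbered libraries deviated together for GCPB+ with GPB+ (correlation across genes 0.155, 0.116 and 0.234) and GCEPB+ with GCPB+ (0.173, 0.119 and 0.177), as they did for GCEPB+ with GPB+ (0.139, 0.111 and 0.132), which was read from the data as pairing by number, with no label stating it. The other 7 combinations of populations, all with CTX or GCEPB-, did not have every correlation above 0.1 and were not taken as paired. That threshold cannot tell weaker pairing from none. For CTX with GCPB+ (0.107, 0.0417 and 0.16), every same-numbered correlation exceeded all others (at most 0.00227). The same held for CTX with GCEPB+ and GPB+ with GCEPB-. With the block, 1494 genes passed for GCPB+ against CTX, beside 1096 without it.

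All members are described. Of other lists, up to 4 genes a comparison that passed are named by absolute log2 fold change, besides the marker genes unread in a population, which were chosen after their values were seen. The members and lists were chosen with earlier results of these data known. Promoter sequences are RefSeq's on GRCm38.p6, whereas gene positions come from the deposited FPKM table (mm10) and are counted from 1. Some genes that the naming rule covers are not reported here.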

Additional observations from a re-analysis of the deposited data

How the results depend on the processing

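The calls of Emx2, Otx1, Dmrta2 and Lhx2 against CTX over the mean of the V-SVZ held under all alternatives run, while calls between single populations rest on 3 libraries each and often ended when 1 was left out. Emx1, Nr2f2 in GPB+ and Dmrta2 in GPB+ rest on few counts, and the Emx1 libraries of a population also differ widely. FPKM values centre all genes differently, and the share of called genes that were higher went from 50.2% in counts to 66.4% for GCEPB+ against GCPB+, from 16.6% to 32.7% for GCEPB- against GCEPB+, from 49% to 61.6% for GCEPB- against GCPB+, from 46.3% to 57.9% for V-SVZ against CTX, from 59.9% to 43.3% for GPB+ against CTX and from 62.1% to 47.1% for GCPB+ against CTX. In a fit of the compared populations alone it was 50.6% for GCPB+ against CTX and 30.2% for GCEPB- against GCEPB+. The cause of each change below was not tested.

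Genes called numbered 1733 with DESeq2 against 1098 for GPB+ against CTX, and 1752 against 1096 for GCPB+ against CTX. For GCPB+ against GPB+ the 5 genes became 2 with the replicate block, 39 with DESeq2, 2 in a fit of the compared populations alone, 1 with either FPKM pseudocount and 2 in FPKM without a filter, and 1 member was called with DESeq2. The replicate block called 2 members for GCEPB- against GCEPB+ (Nr2f2 and Lhx2, the latter at adjusted p = 0.0234), where filtered FPKM called 0. The 301 genes higher in GCEPB- became 528 with the block and 545 with DESeq2. Genes lower than in CTX numbered 440 in GPB+ (217 to 291 with 1 library left out, 758 with DESeq2) and 415 in GCPB+ (192 to 420, and 697 with DESeq2). The block also called Lhx2 for GPB+ against CTX (adjusted p = 0.0141). For GCEPB- against GCPB+ DESeq2 called 3 members and filtered FPKM called 0, and for GCEPB+ against GCPB+ filtered FPKM called 2. With 1 library left out, genes called ranged from 587 to 894 for GPB+ against CTX, from 600 to 1037 for GCPB+ against CTX and from 0 to 3 for GCPB+ against GPB+. Members called ranged from 1 to 3 for GCPB+ against CTX, and from 0 to 1 for GCEPB+ against GCPB+, GCEPB- against GCEPB+ and GCEPB- against GCPB+.

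Reversals of sign concerned values without a call. With the block, Emx1 gave 0.60 for GCPB+ against CTX and 0.37 for GCPB+ against GPB+, and in FPKM without a filter 0.04 for the former. In FPKM, Emx2 gave 0.04 or 0.06 for GCEPB+ against GCPB+, and for GCEPB- against GCPB+ Lhx2 gave 0.04, Nr2f1 0.30 or 0.33 and Pax6 0.24 or 0.26. With 1 library left out, Emx1 ranged from -0.17 to 5.49 for V-SVZ against CTX, -1.56 to 5.71 for GPB+ against CTX, -0.62 to 5.03 for GCPB+ against CTX, -1.27 to 1.46 for GCPB+ against GPB+, -0.38 to 2.23 for GCEPB+ against GCPB+ and -0.83 to 0.02 for GCEPB- against GCPB+. Nr2f1 ranged from -0.16 to 0.64 for V-SVZ against CTX, -0.16 to 0.33 for GCEPB+ against GCPB+, -0.34 to 0.16 for GCEPB- against GCEPB+ and -0.13 to 0.06 for GCEPB- against GCPB+. Lhx2 ranged from -0.31 to 0.05 for GCPB+ against GPB+, Emx2 from -0.52 to 0.17 for GCEPB+ against GCPB+, Otx1 from -0.30 to 0.18 for GCEPB- against GCEPB+ and Pax6 from -0.11 to 0.05 for GCEPB- against GCPB+.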
